A study of Argopecten irradians concentricus with 9 samples.

Results

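Gene models of the bay scallop Argopecten irradians concentricus that match heat shock 70 kDa protein 12A or 12B were followed in the shell-closing adductor muscle at high, low and room water temperature. They were chosen by the Swiss-Prot protein name in the deposited table alone: every gene model whose name begins with heat shock 70 kDa protein 12 was kept, which gave 85 of 28864 gene models, 56 matching 12A and 29 matching 12B. RNA sequencing covered 3 high temperature, 3 low temperature and 3 room temperature libraries from animals labelled one year old. The labels give no degrees, no duration, no strain beyond the subspecies and no genotype, and describe RNA as isolated per tank. Whether a group's 3 libraries stem from different animals or tanks is not stated, so each p-value reflects only how much these libraries varied, which may be technical.

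HSP70 chaperones bind unfolded stretches of protein through a substrate-binding domain and release them in a cycle driven by ATP, helped by J-domain co-chaperones and by nucleotide exchange factors such as the BAG proteins. The 12A and 12B proteins are distant relatives that share the ATPase part of the fold and differ strongly from the inducible chaperones elsewhere. In humans and mice, where each is a single gene, 12A is known from the brain and 12B from endothelial cells. In bivalves such as oysters and scallops the 12A and 12B relatives are known to be numerous. The names used here state similarity to the human or mouse protein and no more.

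The libraries held 11716140 to 16229040 assigned reads. Levels are given as FPKM, fragments per kilobase of gene model, scaled to the authors' library depth. They can thus be compared between genes of different length. That depth, recovered from the FPKM, lay below the assigned reads in some libraries and above them in others. It was 9.06e+06 against 13932572 assigned reads in high temperature replicate 3, and 1.98e+07 against 14121401 in high temperature replicate 1. Myosin regulatory light chain A of smooth adductor muscle averaged 43754 FPKM over the 9 libraries. It is on the muscle marker list, which mixes smooth and striated muscle names. Of the 12 models on that list, 7 averaged at least 1 FPKM. Of 99 haemocyte or immune marker models 7 did so, led by big defensin at 399 FPKM, and of 64 ciliated epithelium models 3. High temperature replicate 3 stood apart on the leading principal component (52 against -28.5 to 13.8 in the others) and low temperature replicate 3 on the next (42.9 against -21.1 to 12.8). In bulk tissue, fewer cells of a type and less RNA per cell cannot be told apart.

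No other protein name was as frequent as 12A in the table. Its 56 gene models put it first among 9370 Swiss-Prot names, ahead of calmodulin and a glycine transporter with 37 each, and 12B with 29 models had rank 6. Of 18 names with at least 20 copies, 12A had 7.14% and 12B 6.90% of its copies at a mean of at least 1 FPKM, against a median of 11.01% over the 18. Other large families lay lower, such as the fucosyltransferase A name with 0 of 26 models at that level, and others higher, such as calmodulin with 9 of 37.

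**Figure D1:**
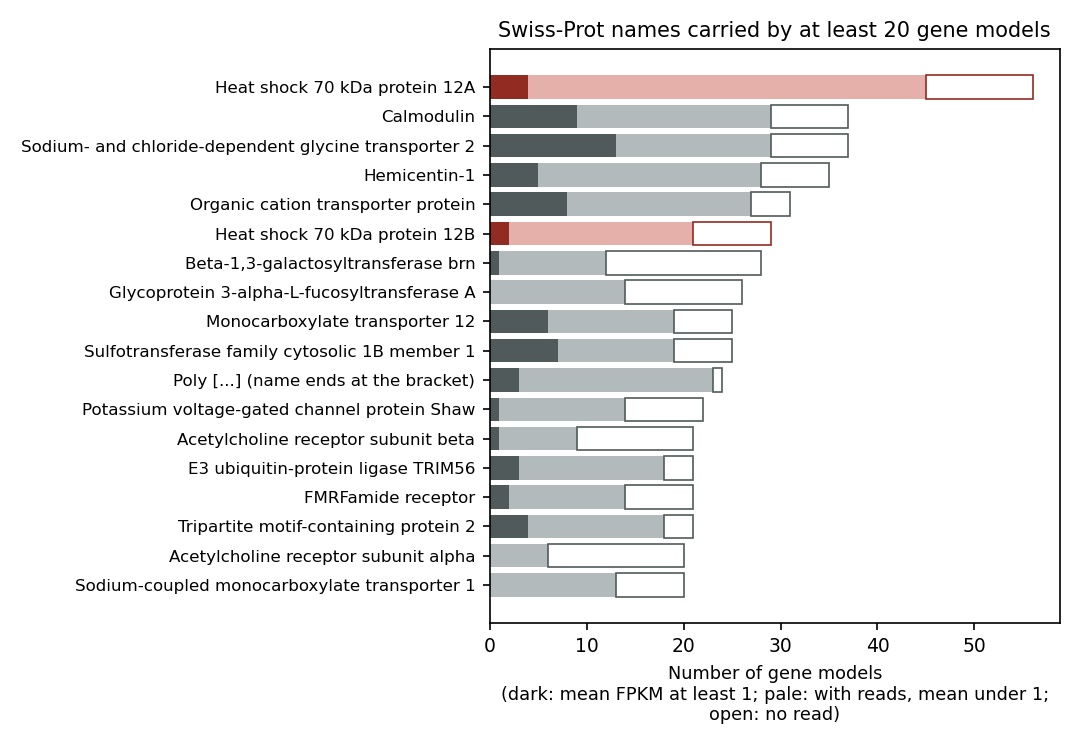
Number of gene models for each Swiss-Prot name carried by at least 20 models. The dark part of a bar has a mean of at least 1 FPKM over the 9 libraries, the pale part has reads and a lower mean, and the open part has no read. The bars in red are 12A (56 models, 4 of them dark) and 12B (29 models, 2 of them dark).

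Of the 85 members, 47 carry the Pfam HSP70 domain in the table and 36 carry no domain there. Among those 47, 1 also has a trypsin protease domain (Contig1738.5, named here as all members are, without the prefix evm.TU.) and 1 also has a TIR domain (Contig1006.10), the domain that passes on signals from Toll receptors. The other 2 members are annotated with a TIR domain alone (Contig313.20) or with an immunoglobulin I-set domain alone (Contig1006.7). Both TIR members had 0 reads in all 9 libraries, and the trypsin member had a mean of 0.0134 FPKM. Members without a domain were shorter, with a median of 1716 bases against 2521 bases for those with the HSP70 domain, and 11 of these 36 had no read, against 7 of the 47. Model length ran from 252 to 6409 bases, and 15 members were under 1000 bases. Of 30 neighbouring pairs of members, 6 lie on the same strand less than 1000 bases apart, for example Contig14999.1 and Contig14999.2 with a gap of 20 bases, and whether such pairs are parts of 1 gene was not tested.

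Most copies were silent or nearly so in muscle. A mean of at least 1 FPKM was reached by 6 of 85 members (7.06%), 4 of 12A and 2 of 12B. Over all gene models that share was 29.9%, and over the 14302 with a Swiss-Prot name 40.4%. A further 29 members (34.1%) averaged 0.1 to 1 FPKM, as did 7591 of all 28864 gene models. Another 31 members averaged less with at least 1 read, and 19 had no read in any library. For those 19, a limit of 3 reads over the 9 libraries together corresponds to a mean of 0.00741 to 0.0900 FPKM depending on model length, which covers counting error only. A read in every library was found for 19 members, 16 of 12A and 3 of 12B. The share with no read was 22.4% among members, 23.0% among all gene models and 12.1% among named ones. How reads that match several copies were counted is not given in the sources used here, so the level of a copy with a near-identical partner is uncertain.

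**Figure D2:**
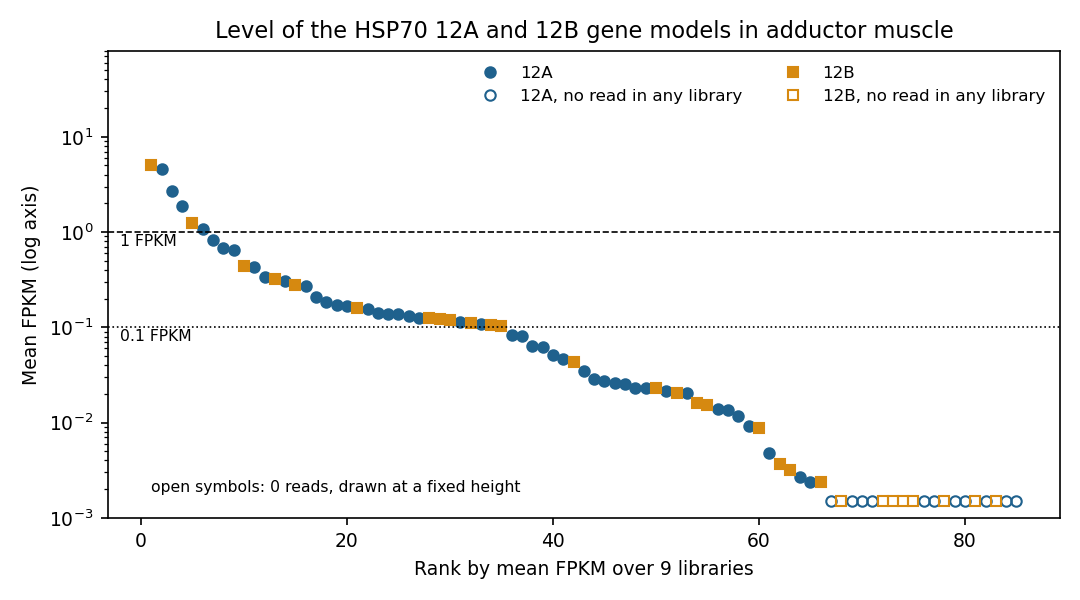
Mean FPKM over the 9 libraries (log axis) of the 85 members in order of level, with 12A as circles and 12B as squares. Lines mark 1 FPKM, passed by 6 members, and 0.1 FPKM, passed by 35; the 19 open symbols had 0 reads and are drawn at a fixed height.

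The level of the family rested on few copies. Contig133.53 (12B) averaged 4.996 FPKM and ranked 3365 among all gene models. Contig229.49 (12A) averaged 4.55 FPKM, Contig1006.7 (12A) 2.73, Contig229.51 (12A) 1.87, Contig52.43 (12B) 1.24 and Contig739.27 (12A) 1.07. Together these 6 made up 67.4% of the summed FPKM of all members, and the first 10 made up 77.97%. Just under the minimum of 1 FPKM lay Contig133.49 at 0.832, Contig133.51 at 0.677 and Contig638.46 at 0.648, all 12A with the HSP70 domain. The tenth was Contig1694.6 (12B) at 0.439 FPKM.

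Members lay in groups along the assembly. The 85 are spread over 39 of its 2834 contigs with a gene model, and 65 share their contig with another member. Of these, 48 stand in 18 runs in which no other gene model of the deposited table comes between them. In 13 of the 18 runs all members lie on 1 strand. The build behind the contigs is not given in the sources used here, and coordinates are those of the table.

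Some runs held neighbours of very different level, and others, such as the run of 3 on Contig230 at 0.170 to 0.322 FPKM, did not. The run on Contig133 (979932 to 1038804, 5 members on the plus strand) was the one with most expression, 29.6% of the summed level. All 5 of its members averaged at least 0.304 FPKM, and the last, Contig133.53 (1026304 to 1038804), averaged 4.996. In the run of 4 on Contig229 (968234 to 1004262), Contig229.49 (974996 to 982105, minus strand) and Contig229.51 (996898 to 1004262, minus strand) averaged 4.55 and 1.87 FPKM. Between them Contig229.50, on the plus strand, averaged 0.0139 FPKM, and Contig229.48, also on the plus strand, 0.142. The other run of 5, on Contig710, held 1.26% of the summed level, with a highest mean of 0.137 FPKM. Contig1006.7 (83866 to 108703, plus strand) shares its contig with 5 other members, of which none averaged over 0.0230 FPKM. The gene models that flank the Contig133 run have no annotation and averaged 0.0419 and 0.0106 FPKM, and both flanks of the Contig229 run carry a mitochondria-eating protein domain (1.77 and 0.0211 FPKM).

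**Figure D3:**
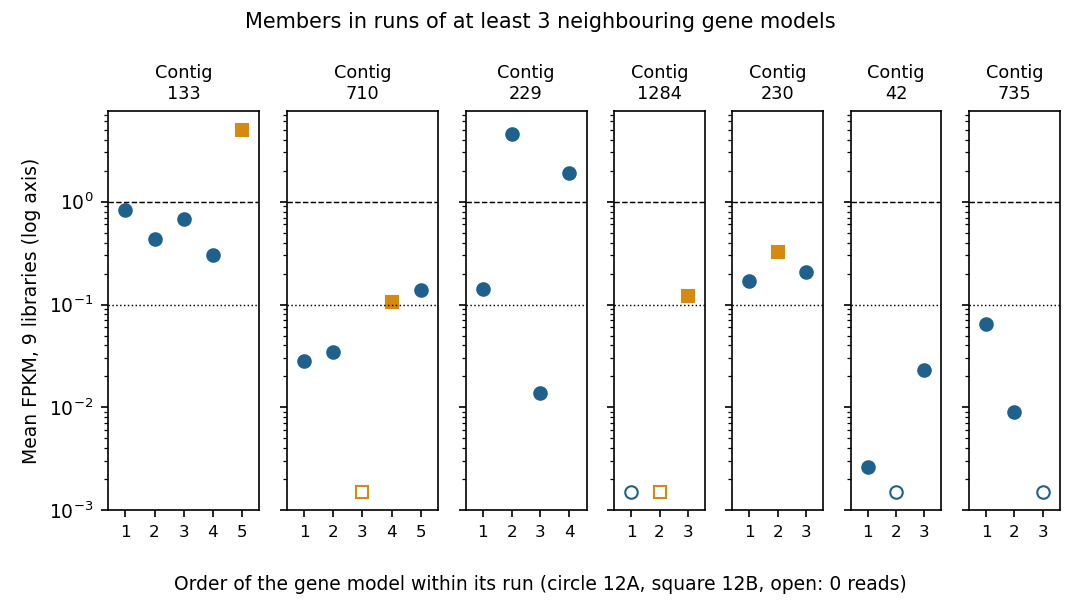
Mean FPKM over the 9 libraries (log axis) of members in the 7 runs of at least 3 neighbouring gene models, in order along each contig. Circles are 12A, squares 12B and open symbols had 0 reads. The Contig133 run lies at 0.304 to 4.996 FPKM, and the Contig229 run ranges from 0.0139 to 4.55 FPKM.

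The comparisons of high with room and of low with room temperature asked which copies respond to warm or cold water. They share the room temperature libraries. In each, 0 of the 6 tested members passed limma's test at an adjusted p under 0.05. Among the 8624 gene models tested, limma called 0.0% at high against room temperature. For low against room it called 0.0% higher and 0.151% lower. Without adjustment, 1 member was higher at high than at room temperature with a limma p under 0.05 (background 4.7%), and 0 were lower (4.87%). At low against room temperature it had 1 member higher (3.35%) and 1 lower (4.81%). The member higher in both comparisons was Contig1006.7, with a mean of 0.138 FPKM at room temperature. It was tested only through the high and low temperature groups, so its direction was favoured by the minimum. Voom on reads recovered from the FPKM also called 0 of 6 in each comparison. The log2 changes below are on the log2(FPKM + 1) scale, which understates changes of genes this low.

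Contig133.53, the most abundant member and a 12B match with the HSP70 domain, had 3.75, 4.44 and 5.15 FPKM in the high temperature libraries, 3.04, 4.65 and 3.73 in the low temperature libraries, and 7.76, 5.59 and 6.85 in the room temperature libraries. Every high and every low temperature library lay below every room temperature library, with 333 reads in all at high and 288 at low temperature, against 560 at room temperature. The log2 change was -0.50 for high against room (SE 0.24, limma adjusted p = 0.539) and -0.69 for low against room (SE 0.24, limma adjusted p = 0.44), and neither passed. Scaled to assigned reads in place of the authors' depth, the 3 room temperature libraries still lay above the others (3.35 to 5.45 at high, 3.24 to 4.27 at low and 5.73 to 8.55 FPKM at room temperature). On that scale the unadjusted limma p rose from 0.0572 to 0.193 for high against room. For low against room it rose from 0.0143 to 0.0704.

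Contig1006.7, the 12A match with an immunoglobulin I-set domain and no HSP70 domain in the table, had 0.732, 2.23 and 4.89 FPKM in the high temperature libraries, 0.544, 5.66 and 10.1 in the low temperature libraries, and 0, 0 and 0.413 in the room temperature libraries. In reads these were 93, 206 and 284 at high, 65, 490 and 701 at low, and 0, 0 and 38 at room temperature. All 6 high and low temperature libraries lay above the 3 room temperature libraries. The libraries of a group differed widely, with means of 2.62 ± 2.11 at high, 5.42 ± 4.77 at low and 0.138 ± 0.239 FPKM at room temperature (SD, n = 3 each). The log2 change was 1.51 for high against room (SE 0.64, limma adjusted p = 0.496) and 2.11 for low against room (SE 0.64, limma adjusted p = 0.363), and neither passed. With 1 library left out, the change at low against room temperature ran from 1.51 (without low temperature replicate 3) to 2.94 (without low temperature replicate 1, limma adjusted p = 0.123), and at high against room from 1.08 (without high temperature replicate 3) to 1.96 (without high temperature replicate 1). Because the room temperature levels are at or near 0, the size depends on the scale: pseudocount 0.1 gave 3.63 for high and 4.28 for low against room temperature, and voom on recovered reads gave 6.56 for high and 7.23 for low against room temperature. The summed level of the haemocyte or immune markers was 249 to 696 FPKM at high, 118 to 671 at low and 291 to 846 at room temperature, with the lowest value in low temperature replicate 3. Big defensin made up most of that sum, 399 of 429 FPKM on average. Of the 7 tested models on that list, 6 lay above 0 and 1 below at high against room temperature (median log2 change 0.43). At low against room 5 lay above 0 and 2 below (median 0.22). The digestive gland markers summed to 2.04, 1.93 and 5.32 FPKM at high, 1.60, 4.67 and 3.61 at low, and 1.33, 2.12 and 1.41 at room temperature, and were highest in the same 3 libraries as Contig1006.7. Only 1 of the 28 models on that list averaged at least 1 FPKM. Gonad markers summed to 2.38 to 19.4 FPKM at high, 1.64 to 3.63 at low and 1.12 to 2.38 at room temperature. The part of these cell types in the difference was not tested.

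Contig739.27, a 12A match with the HSP70 domain, had 1.29, 1.76 and 1.20 FPKM at high, 0.828, 0.987 and 0.808 at low, and 1.03, 0.687 and 1.05 at room temperature. The high temperature libraries lay above all others on the FPKM scale, but scaled to assigned reads they overlapped both groups (0.781 to 2.16 at high, 0.702 to 1.15 at low and 0.705 to 1.13 FPKM at room temperature). With means of 1.42 FPKM at high, 0.874 at low and 0.922 at room temperature, it reached the minimum of 1 FPKM only through the high temperature group. The log2 change was 0.33 for high against room (SE 0.22, limma adjusted p = 0.681) and the difference between high and low was 0.36 (SE 0.22, limma adjusted p = 0.588), so neither passed.

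The other tested members overlapped between groups in all 3 comparisons. Contig229.49 averaged 4.12 ± 1.94 FPKM at high, 5.01 ± 1.31 at low and 4.52 ± 2.32 at room temperature (SD, n = 3 each). Its neighbour Contig229.51 averaged 1.55 ± 0.375, 2.18 ± 0.710 and 1.89 ± 0.898 FPKM at high, low and room temperature. Contig52.43, a 12B match without a domain, averaged 1.60 ± 0.895 FPKM at high, 1.17 ± 0.720 at low and 0.954 ± 0.870 at room temperature. Its 9 libraries ran from 6 reads in room temperature replicate 1 to 64 in high temperature replicate 2.

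**Figure D4:**
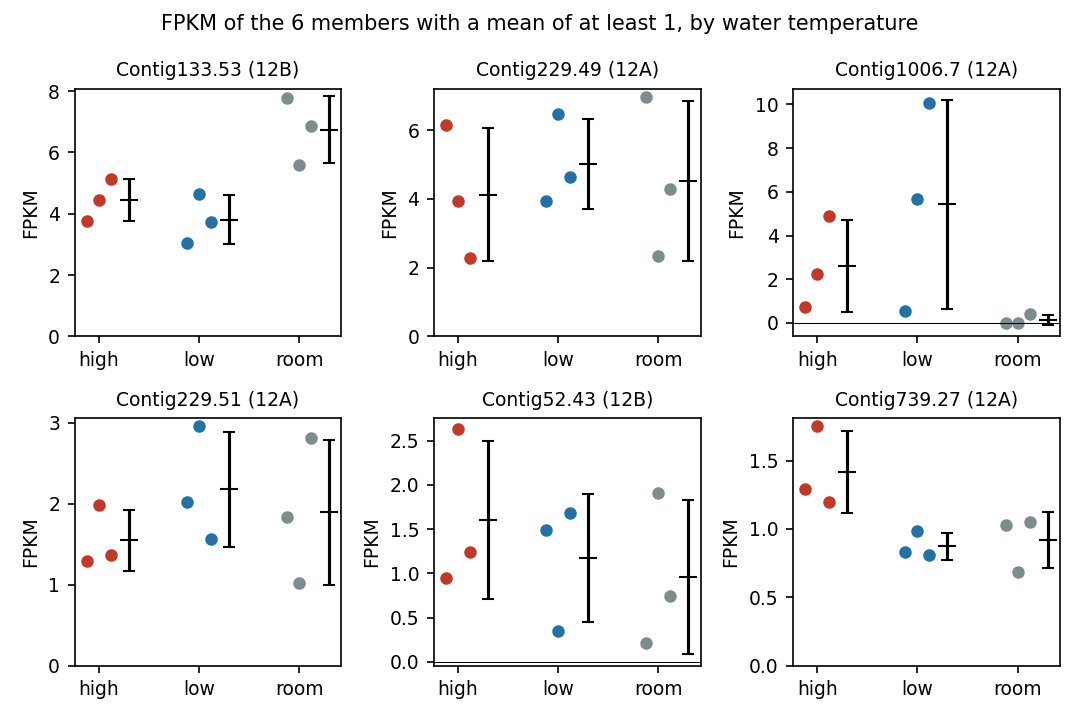
FPKM of the 6 members with a mean of at least 1 in each library of the high, low and room temperature groups (points), with the group mean and SD (bars, n = 3). Contig133.53 lies at 3.04 to 5.15 at high and low and at 5.59 to 7.76 at room temperature; Contig1006.7 lies at 0.544 to 10.1 at high and low and at 0 to 0.413 at room temperature.

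The direct comparison of high with low temperature gave 0 calls among the 6 tested members. Of all tested gene models limma called 0.162%, of which 0.151% were higher and 0.0116% lower at high temperature. At the minimum of 1 FPKM neither limma nor voom gave any of the 6 an unadjusted p under 0.05, where limma had 6.42% of all tested gene models higher and 5.45% lower. Contig739.27 had the lowest p among those higher at high temperature, and Contig229.51 among those lower, at -0.31 on the log2 scale (SE 0.29, adjusted p = 0.75 by limma).

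Groups that did not overlap were counted for each direction. At high against room temperature 2 of 6 tested members lay wholly higher (background 7.54%) and 1 wholly lower (8.97%). At low against room temperature 1 lay wholly higher (6.53%) and 1 wholly lower (8.74%). At high against low temperature 1 lay wholly higher (8.75%) and 0 wholly lower (8.45%). These are the members named above, and 6 are too few to set such counts against the background. The 2 higher at high than at room temperature, Contig739.27 and Contig1006.7, averaged under 1 FPKM at room temperature. They were tested only through the groups where they were high, so their direction was favoured by the minimum. The same limit holds for Contig1006.7 at low against room and for Contig739.27 at high against low temperature. Scaled to assigned reads, a setting added after seeing the data, Contig739.27 overlapped in both of its comparisons and the others did not.

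The 29 members between 0.1 and 1 FPKM had few reads each and were below the minimum for the test. At high against room temperature 4 of them lay wholly higher, where 7.42% of all gene models in that range did, and 2 wholly lower (4.77%). Contig230.30 (12A), in the run of 3 on Contig230, had 13, 22 and 4 reads at high, 7, 4 and 10 at low, and 2, 1 and 0 at room temperature. Contig638.46 went the other way, with 0.413 ± 0.232 FPKM at high, 0.503 ± 0.236 at low and 1.03 ± 0.267 at room temperature (SD, n = 3 each). On the FPKM scale the high and the low libraries of both members lay wholly on one side of the room temperature libraries. Scaled to assigned reads this held for Contig230.30, whereas the high temperature libraries of Contig638.46 overlapped those at room temperature (0.118 to 0.793 against 0.707 to 1.46 FPKM). On that scale 3 of the 4 higher and 0 of the 2 lower members at high against room temperature still did not overlap. Only members that did not overlap on the FPKM scale were rescaled. The share over all gene models was not counted there, so these counts have no background.

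By group mean, 14 of the 29 lay above and 15 below room temperature at high temperature (background 55.2% and 44.3%), 9 higher and 20 lower at low than at room (52.2% and 46.8%), and for high against low 15 had the higher and 14 the lower mean (52.6% and 46.9%). At low against room temperature 3 of the 29 lay wholly higher (6.78%) and 3 wholly lower (5.41%). Among the lower was Contig133.50, in the same run as Contig133.53, with 14, 15 and 3 reads at low against 31, 21 and 26 at room temperature. Its neighbour Contig133.51 lay wholly higher, at 0.858 ± 0.0686 FPKM at low against 0.639 ± 0.160 at room temperature. Scaled to assigned reads Contig133.50 still did not overlap, and Contig133.51 did (0.697 to 1.30 at low and 0.483 to 0.725 FPKM at room temperature). At high against low temperature 2 of the 29 lay wholly higher (6.88%) and 2 wholly lower (5.64%), among them Contig451.28, which averaged 0.126 ± 0.0872 in the high temperature libraries and 0.353 ± 0.0783 FPKM in the low temperature libraries (SD, n = 3 each). Its reads were 15, 2 and 4 at high and 22, 21 and 11 at low temperature, which overlap, as do its levels scaled to assigned reads. Voom on recovered reads with the minimum lowered to 0.1 FPKM, chosen after seeing the data, tested 35 members and called 0 in each comparison. The share of all gene models called was 0.0% at high against room, 0.0617% at low against room and 0.105% at high against low temperature. At an unadjusted p under 0.05 voom had 3 members higher and 3 lower at high against room temperature (background 4.84% and 3.85%), 2 and 1 at low against room (4.06% and 3.81%), and 1 and 1 at high against low (5.19% and 4.89%). With no filter limma tested all 85 members and called 0 in each comparison. It called 0.0104%, 0.0208% and 0.00693% of all gene models at high against room, low against room and high against low. At an unadjusted p under 0.05 limma then had 3 members higher and 7 lower at high against room temperature. Of all 28864 gene models it had 941 higher and 797 lower there. Models with no read cannot pass, and these were 19 of the 85 members and 6651 of all gene models. Among the 7 lower, Contig362.79 had 4 reads in all, and Contig2106.4 and Contig52.44 had 6 each. The other lower members had 15 to 1181 reads. These counts were not tested against those of all gene models. At low against room it had 1 member higher and 4 lower (705 and 768 of all gene models). At high against low it had 2 members higher and 0 lower (1069 and 887 of all gene models). The members higher there were Contig739.27 and Contig500.14, a 12A match with a mean of 0.0468 FPKM. The lowest adjusted p by voom was 0.362, for Contig230.30 at high and Contig1006.7 at low against room temperature.

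Some copies had much of their level in 1 library. Contig1235.22 had 37 of its 72 reads in room temperature replicate 3, where its level was 4.67 times that of the next library. Contig6.205 had 35 of its 73 reads in the same library, and Contig229.107 had 84 of its 163 reads in high temperature replicate 1. The high temperature libraries of Contig6.205 also lay wholly below its low temperature libraries, with 4, 3 and 2 against 11, 6 and 11 reads. This held on the FPKM scale and scaled to assigned reads. The 3 copies lie on different contigs.

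Summed over all 85 members, the family had 23.6, 25.5 and 21.7 FPKM in the high temperature libraries, 19.3, 28.6 and 29.1 in the low temperature libraries, and 26.2, 19.4 and 26.5 in the room temperature libraries. The groups overlapped. Member reads numbered 654 to 1353 at high, 999 to 1329 at low and 713 to 1184 at room temperature, and 32 to 45 members had a read in a given library.

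The 12B sum was 7.14, 9.37 and 8.18 FPKM at high, 6.24, 6.69 and 7.12 at low, and 9.94, 9.95 and 9.69 at room temperature, so the 3 groups did not overlap. Without Contig133.53 the 12B sum was 3.04 to 4.93 FPKM at high, 2.04 to 3.39 at low and 2.18 to 4.37 at room temperature, and the groups overlapped. They also overlapped when all 12B members were scaled to assigned reads (5.32 to 11.5 at high, 6.14 to 8.66 at low and 8.57 to 10.95 FPKM at room temperature). No test was made of these sums.

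**Figure D5:**
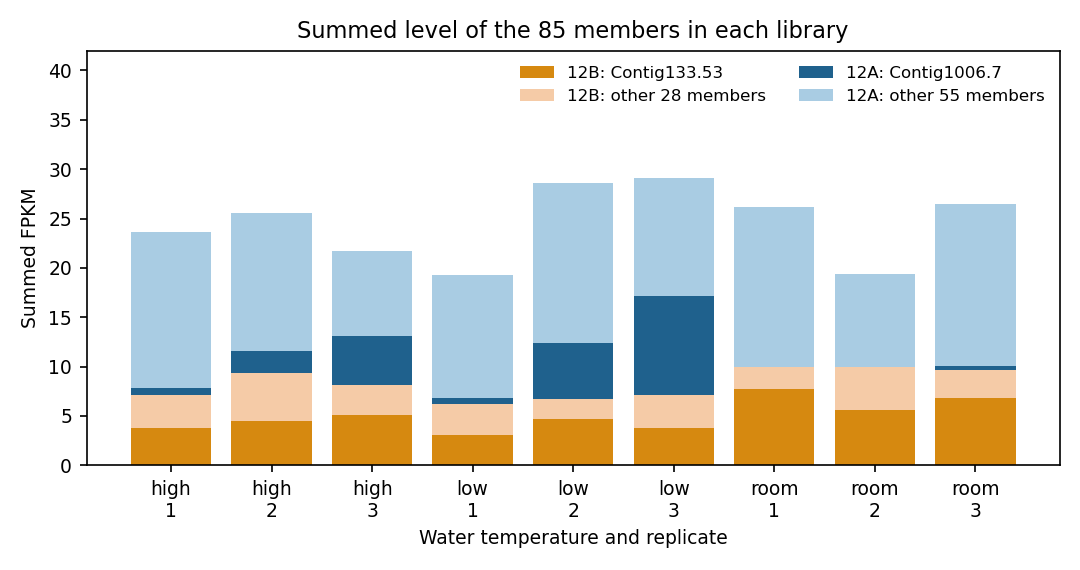
Summed FPKM of the 85 members in each library, stacked by 12B (Contig133.53 and the other 28) and 12A (Contig1006.7 and the other 55). Contig133.53 is highest in the room temperature libraries, at 5.59 to 7.76 FPKM, and Contig1006.7 makes up 10.1 FPKM of low temperature replicate 3.

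Other lists of the HSP70 system differed in level. Of 24 gene models for other HSP70 proteins, 17 averaged at least 1 FPKM. The leading one, heat shock cognate 71 kDa protein, a chaperone that cells make at all times, averaged 234 FPKM. The summed level of those 24 was 445 to 604 FPKM at high, 406 to 419 at low and 506 to 608 at room temperature, against 19.3 to 29.1 for all 85 members over the 9 libraries. Summed means over the 9 libraries were 464 FPKM for J-domain models and 4309 for small heat shock proteins, and 28.8 for partners and HSP90, 22.5 for nucleotide exchange factors and 6.06 for HSP110 models. Of 38 J-domain models 23 averaged at least 1 FPKM, as did 6 of 7 nucleotide exchange factors, 2 of 2 HSP110 models and 3 of 3 small heat shock proteins.

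These groups are set beside the members at low against room temperature, with no test of the difference. Of the 17 other HSP70 models tested, 2 fell by limma and 0 rose, 14 lay below 0, and the median log2 change was -1.08. They were major heat shock 70 kDa protein Ab at 0.775 ± 0.596 FPKM at low and 9.95 ± 2.62 at room temperature (SD, n = 3 each, limma adjusted p = 0.0131), and a model named heat shock 70 kDa protein at 0.513 ± 0.283 FPKM at low and 6.31 ± 2.30 at room temperature (limma adjusted p = 0.0422). Of the 6 members, 0 fell and 0 rose, 2 lay below 0, and the median was 0.17. Contig1006.7 and Contig52.43 averaged under 1 FPKM at room temperature, so the direction of this median was favoured by the minimum. The median over all tested gene models was -0.04. Of 23 J-domain models 1 fell and 0 rose (median -0.39), DnaJ homolog subfamily B member 4 at 10.4 ± 1.49 FPKM at low and 34.7 ± 5.29 at room temperature (SD, n = 3 each, limma adjusted p = 0.0276). All 6 tested nucleotide exchange factors lay below 0 and 0 passed (median -0.95), led by the BAG domain protein Samui at 3.54 ± 1.17 FPKM at low and 9.93 ± 2.40 at room temperature (SD, n = 3 each, limma adjusted p = 0.167). The 2 HSP110, 4 partner and HSP90 and 3 small heat shock models had 0 calls, with medians of -0.51, -0.11 and -0.02.

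At high against room temperature 0 models of any of these lists passed. Medians were -0.08 for other HSP70, -0.16 for J-domain and -0.11 for nucleotide exchange models, and 0.12 for the 6 members. Of these members, Contig1006.7, Contig52.43 and Contig739.27 averaged under 1 FPKM at room temperature. They were tested only through groups where they were higher, so the direction of the members' median was favoured by the minimum. Between high and low temperature 2 other HSP70 models and 1 J-domain model were higher at high temperature by limma and 0 lower (major heat shock 70 kDa protein Ab, heat shock protein 70 B2 and the same DnaJ model), with medians of 0.93 and 0.06, where the 6 members had a median of -0.05 and 0 calls.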

How the data were processed

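The authors deposited FPKM for 28864 gene models in 9 libraries, per the file headers, with gene lengths, contig positions, Swiss-Prot names and Pfam domains. HISAT2 2.0.4 and HTSeq 0.9.1 are named in the submitters' processing notes. The sources used here do not give build, settings or strand use. Within a library, FPKM multiplied by length moved in equal steps of 1 read (largest distance from a whole read 3.66e-08, tolerance 0.01), which gave the reads used here. Tests used limma 3.58.1 (R 4.3.3) on log2(FPKM + 1), pseudocount 1, for 8624 gene models with a mean of at least 1 FPKM, with 9 libraries in 1 fit, eBayes with trend and Benjamini-Hochberg adjustment over all of them. The script was tested on simulated data. Members and lists were chosen with earlier results of these data known. Named members are the 10 most abundant, those of lowest p in each direction, those next to the minimum, and those of largest change among groups that do not overlap. Others were chosen after their values were seen. Lists are matches to words in protein names. Figures used matplotlib 3.10.9.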

Additional observations from a re-analysis of the deposited data

How the results depend on the processing

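The count of called members was 0 in all 3 comparisons and under every alternative in which a member was tested: pseudocount 0.1, no filter (85 members tested), total-count and median scaling, a fit of the 6 libraries compared, robust variance, array weights, voom on recovered reads, leaving out each library, and, chosen after seeing the data, leaving out high and low temperature replicates 3 together and voom with a minimum of 0.1 FPKM. The lowest adjusted p of a tested member was 0.123. With a minimum mean of 5 FPKM no member was left. The number of expressed members was 35 at a minimum of 0.1 FPKM, 0 at 5 FPKM, 4 when 1 FPKM was asked of all 3 libraries of a group, and 5 to 6 without 1 library. Of the 18 log2 changes of tested members, 9 kept their direction under all 17 alternatives. Contig229.49 at high against room temperature was 0.0606 with array weights and 0.1942 without both replicates 3. With 1 library left out, the log2 changes at high against low that crossed 0 were -1.4206 to 0.0003 for Contig1006.7, -0.5570 to 0.0045 for Contig229.49 and -0.0415 to 0.4545 for Contig52.43. With 1 library left out, the log2 changes at high against room that crossed 0 were -0.4116 to 0.2169 for Contig229.49 and -0.3791 to 0.0789 for Contig229.51. With 1 library left out, the log2 changes at low against room that crossed 0 were -0.1306 to 0.4979 for Contig229.49, -0.0726 to 0.3854 for Contig229.51, -0.1134 to 0.5191 for Contig52.43 and -0.1230 to 0.0183 for Contig739.27. The cause was not tested. Libraries with the same number correlated at -0.103 to 0.242 in their deviations from group means, over 0.1 in 3 of 9 pairs. Libraries with different numbers correlated at -0.224 to 0.12. Of the 9 libraries, 5 correlated best with their own number. The labels do not say whether the numbers pair libraries, and these few values cannot decide it. With the replicate block 0 members were called in each comparison. Of 22 cases in which a member's groups did not overlap, 13 did not overlap when scaled to assigned reads, added after seeing the data, and 9 did. The share over all gene models was not counted on that scale, so these counts have no background. Depth limits the low copies: 11 members had 1 to 3 reads in all.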
